A study of Mus musculus with 20 samples.

Results

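The 44 lysosome genes described here encode the hydrolases, the proton pump, the membrane proteins and the transcriptional regulators of the lysosome. They were taken by name from the 31053 genes of the deposited matrices, and all 44 were found. They comprise 10 cathepsins and legumain, 7 glycosidases, 12 subunits of the vacuolar ATPase (V-ATPase), 5 other acid hydrolases or precursors of their activators and ligands, 7 membrane proteins and 3 members of the MiT/TFE family of transcription factors. Lysosomes are acidic compartments in which proteins, glycans and lipids delivered by phagocytosis, endocytosis and autophagy are broken down. The V-ATPase pumps protons into them, the cathepsins and glycosidases work in the acid so formed, and TFEB, TFE3 and MITF switch on many lysosomal genes. In adipose tissue, lysosome-rich macrophages take up the remnants and the lipid of adipocytes.

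Cells came from the stromal vascular fraction of interscapular brown adipose tissue (iBAT) of mice aged 8 to 14 weeks, separated with magnetic beads into cells with (Lin+) and without (Lin-) immune lineage markers. The C57 groups were male C57BL/6J mice. One group stayed at colony room temperature (RT, 24 °C) and another spent 4 days at 6 °C (COLD). The third, at 24 °C, received CL316,243 (CL), an agonist of the β3 adrenergic receptor. It came from an implanted pump at 0.75 nmol per hour for 4 days. The study's methods describe no pump for RT or COLD mice, so drug and implant cannot be told apart. Each C57 group had 2 experiments, and each experiment gave 1 library of each fraction. The Adrb1 line was represented by female mice, either at RT or after 4 days of cold, and each of its groups had 1 experiment. All of them were Adrb1 fl/fl and received tamoxifen. Knockout (KO) mice were also Pdgfra-CreER +/-, so that the deletion was directed to cells that express Pdgfra, whereas wild-type (WT) mice were Pdgfra-CreER -/-. Every library pooled 3 to 4 mice, and the pool is the replicate. Version 3 of the Chromium kit was used for the RT libraries of the Adrb1 line and version 2 for all others. Kit and temperature therefore cannot be told apart in that line. In both lines, mice in the cold were kept singly in an incubator, in static cages without nesting material. The study's methods describe this housing for no other group, so cold and housing cannot be told apart.

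The 20 libraries held 7857161 to 41979839 unique molecular identifiers (UMIs) after filtering. In the Lin- library of RT 2, 72.0% of barcodes exceeded the mitochondrial limit and 28.0% of barcodes were kept. These values were 41.3% and 57.7% in the Lin- library of KO RT, and 20.6% and 79.2% in that of WT RT. The Lin+ and Lin- libraries of CL 2 shared 1098 barcodes, 17.1% of the smaller library, against at most 2.04% in the other pairs of libraries. Macrophage-like cells held 7 of the shared barcodes and ASC1-like cells of CL 2 held 182 of 1103. Clusters were named from marker genes, with the suffix -like. The lists included Gpnmb and Trem2 for MAC1-like (5718 cells), Mrc1 and C1qa for MAC2-like (4056 cells), and Fcgr1 and Ccl2 for MAC3-like cells (3885 cells). No cluster of the Lin- fraction was named a macrophage. Monocyte-like (MONO, 4005 cells), dendritic (DEND1 to DEND4) and adipose stromal (ASC1 to ASC3) clusters were named in the same way. Of the markers of each macrophage class, 6 of 8, 11 of 14 and 14 of 14 were highest in their own class. The names of DEND2-like cells (5 of 9) and monocyte-like cells (10 of 17) rest on fewer such markers, whereas 8 of 10 held in DEND1-like, 10 of 10 in DEND3-like and 10 of 12 in ASC1-like cells. A cluster of 1285 cells with few UMIs and mixed macrophage markers and a cluster of 2439 proliferating myeloid cells were left unnamed and not used. In ASC1-like cells, Adrb1 stood at 7.77 CPM (UMIs of a gene scaled to 1e6 UMIs of its class in that library) in WT RT and 4.18 CPM in WT COLD, against 0.57 CPM in KO COLD and 0 UMIs in KO RT, where a count of 0 allows up to 2.38 CPM.

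The E-box CACGTG, and its extended form TCACGTGA, are the letters that MiT/TFE factors are known to bind in front of lysosomal genes. Promoter windows of RefSeq (build GRCm38.p6) were found for 37 of the 44 genes. They were read over the 250 bases before the start that each window is built on. Of the 49 windows of these genes, 40 matched a transcript. The start of a window is not always the first of the gene: in Ctsa, Atp6v1a, Ctsl and Lgmn it lies well inside the annotated gene. CACGTG was present in 12 of the 37 (32.4%), against 6.86% of 27025 genes. The 12 were Ctsa, Ctsd, Ctsl, Lgmn, Gaa, Gla, Glb1, Naglu, Atp6v0b, Atp6v1a, Lamp1 and Mcoln1. TCACGTG was present in 11 of the 37 (29.7%), against 3.58% of all genes. TCACGTGA was present in Atp6v1a, Ctsa, Ctsd, Gla and Mcoln1, 13.5% of the 37 against 0.907% of all genes. The shorter motifs lie within the longer, so the counts overlap, and both strands were searched. A match describes the letters of the window and is not evidence of binding. The following stretches are shown because they hold the extended motif, or in Lamp1 the most copies of the core motif. They are written 5′ to 3′ on the strand of the gene, with the motifs in capitals.
Ctsd, chr7:142387860-142387985, minus strand: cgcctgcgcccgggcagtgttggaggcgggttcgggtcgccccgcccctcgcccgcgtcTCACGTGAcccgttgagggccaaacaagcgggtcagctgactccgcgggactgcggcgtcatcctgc
Gla, chrX:134601134-134601255, minus strand: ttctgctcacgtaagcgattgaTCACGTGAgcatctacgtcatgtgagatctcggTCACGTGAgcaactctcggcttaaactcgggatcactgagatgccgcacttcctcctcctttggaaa
Atp6v1a, chr16:44139325-44139450, minus strand: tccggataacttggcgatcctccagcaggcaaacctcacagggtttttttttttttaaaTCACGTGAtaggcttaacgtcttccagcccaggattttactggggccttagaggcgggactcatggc
Ctsa, chr2:164833701-164833772, plus strand: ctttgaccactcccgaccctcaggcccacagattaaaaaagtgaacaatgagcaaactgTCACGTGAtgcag
Mcoln1, chr8:3500414-3500518, plus strand: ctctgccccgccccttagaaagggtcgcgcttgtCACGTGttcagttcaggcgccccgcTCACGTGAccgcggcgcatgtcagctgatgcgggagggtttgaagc
Lamp1, chr8:13159086-13159160, plus strand: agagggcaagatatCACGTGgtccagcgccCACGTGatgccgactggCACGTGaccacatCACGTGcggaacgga
Of these 6 genes, Ctsd, Gla, Atp6v1a and Lamp1 were higher in macrophage-like cells in the comparison of cold with RT, whereas Ctsa and Mcoln1 did not pass the test. Of all 44 members 30 were higher there, so these calls are not a result about the motif.

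The 44 genes took the largest share of UMIs in macrophage-like cells. Over the libraries with at least 20 cells of a class, their share in MAC1-like cells ran from 2.13% to 5.78% of UMIs, with a median of 4.12%. The medians were 2.56% in MAC2-like cells and 2.29% in MAC3-like cells. In monocyte-like cells the share lay in a narrow range, from 1.25% to 1.54%. Medians in dendritic classes were 1.02% (DEND1), 1.16% (DEND2), 1.11% (DEND3) and 1.504% (DEND4). Among stromal classes the median was 1.14% in ASC1-like cells, 0.74% in ASC2-like cells and 1.07% in ASC3-like cells. T and natural killer cells stood at a median of 0.25%.

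**Figure D1:**
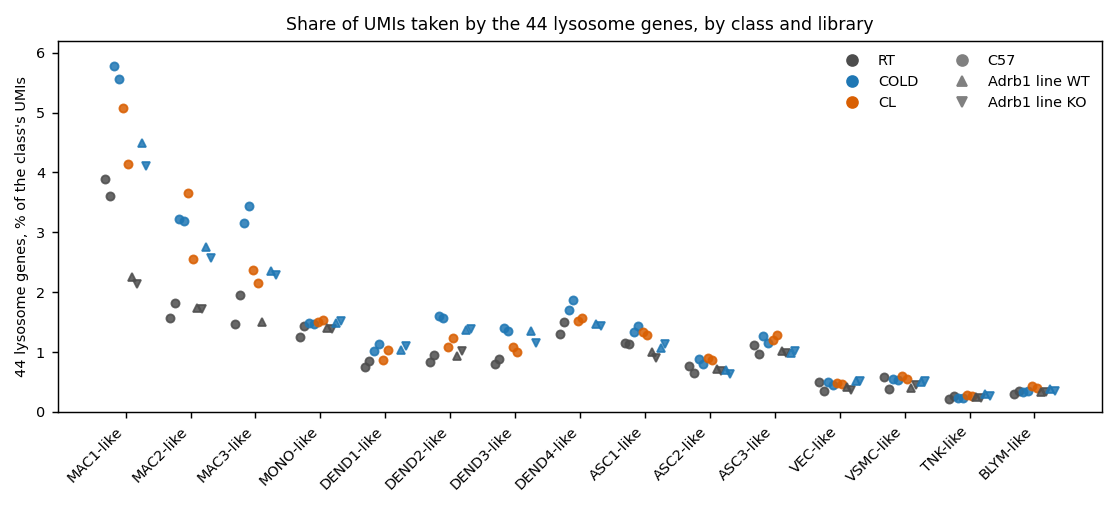
Share of all UMIs of a class that fell on the 44 lysosome genes (y axis, %), for each class (x axis), with 1 point per library of at least 20 cells. Colours give the treatment and shapes the mouse line. MAC1-like cells in COLD reach 5.78%, and monocyte-like cells stay between 1.25% and 1.54%.

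By the mean over libraries, 24 of the 44 genes had their highest level in MAC1-like cells, 6 in MAC2-like and 1 in MAC3-like cells. The share of all genes highest in each class is not given, so these counts describe the members only. The V-ATPase followed this pattern most closely, with 11 of 12 subunits highest in a macrophage class. Atp6v1d was the exception and was highest in DEND4-like cells, as were Ctsh, an aminopeptidase, and Grn, the precursor of the granulins. Stromal classes held the highest level of 8 genes. Ctsk, the collagen-degrading cathepsin of osteoclasts, averaged 382.9 ± 104.7 CPM (SD, n = 10 libraries) in ASC3-like cells and 322.2 ± 79.8 CPM in ASC1-like cells. Ctsl (1550 ± 376.7 CPM), Gaa, which releases glucose from glycogen (162.7 ± 17.7 CPM), Naglu, a heparan sulfate glycosidase (58.8 ± 9.09 CPM), and the calcium channel gene Mcoln1 (15.03 ± 3.45 CPM) were also highest in ASC3-like cells.

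ASC1-like cells had the highest level of Glb1, the lysosomal β-galactosidase (73.5 ± 21.4 CPM), of the tetraspanin Cd63 (2958 ± 615.3 CPM) and of Scarb2, an integral protein of the lysosomal membrane (174.2 ± 58.8 CPM). Laptm5 was highest in DEND2-like cells (951.2 ± 207.7 CPM) and Tfeb in monocyte-like cells (56.8 ± 17.5 CPM). For all 44 genes the range over libraries in the highest class overlapped that of the next class, so neighbouring classes in the order did not separate beyond their spread. Genes of hematopoietic cells were close to 0 in stroma: in ASC1-like cells Ctss reached at most 1.69 CPM, Laptm5 1.43 CPM and Atp6v0d2 0.14 CPM.

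**Figure D2:**
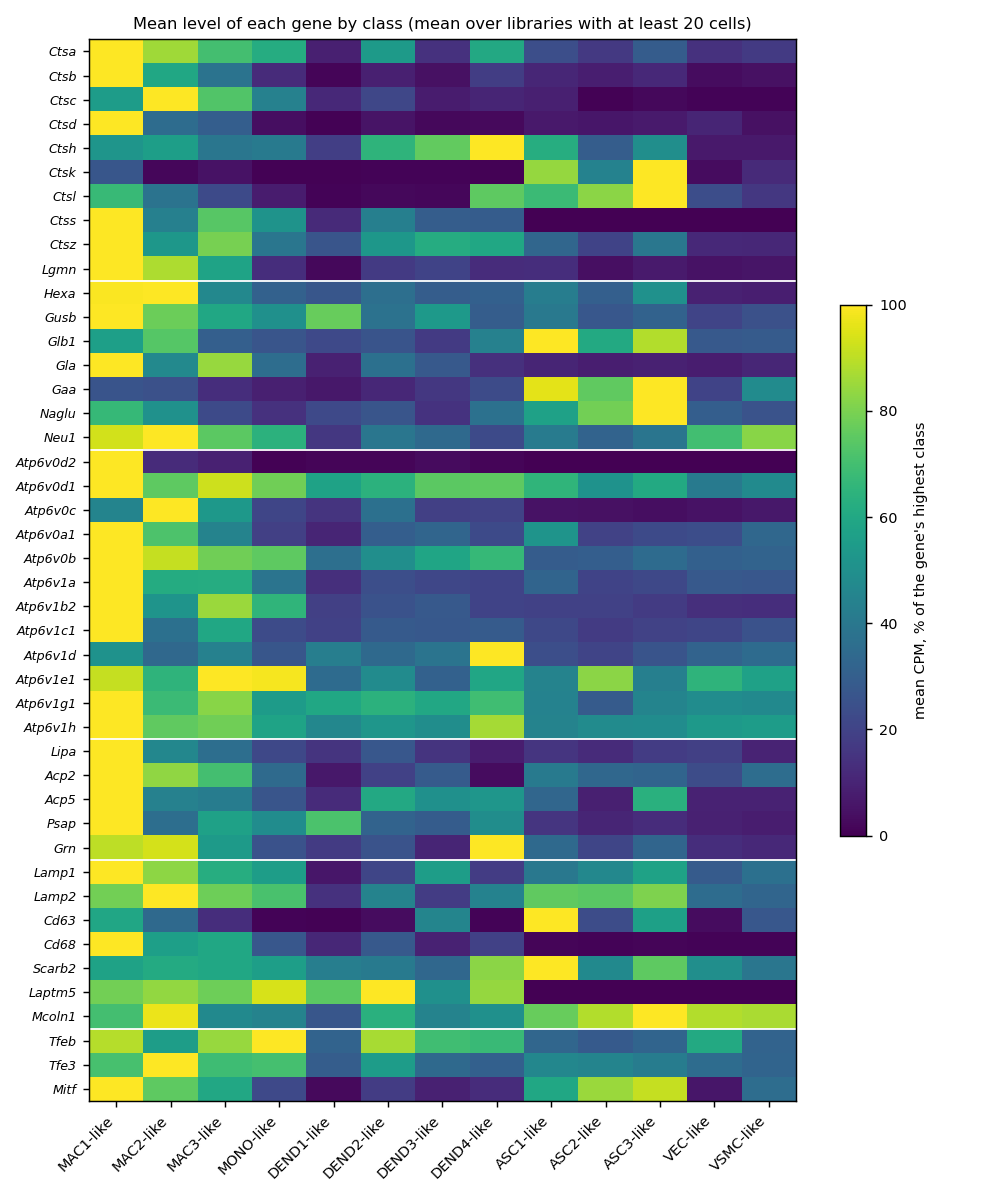
Mean level of each gene (rows) in each class (columns), as the percentage of the gene's highest class mean, with means over libraries of at least 20 cells. MAC1-like cells hold the highest level of 24 genes, ASC3-like cells of 5, and rows cannot be compared with each other.

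Cold exposure was compared with RT in all macrophage-like cells together, which asks how the lysosomal genes of iBAT macrophages differ after 4 days in the cold. UMIs of these cells were summed per library, so that a change in the mix of cells and a change of RNA per cell cannot be told apart in the sums. The share of UMIs on the 44 genes was 1.75% in RT 1 and 1.92% in RT 2, against 4.83% in COLD 1 and 4.92% in COLD 2. It was 4.19% in CL 1 and 3.05% in CL 2. All 44 genes passed the filter on low counts. In cold, 30 of them were higher (edgeR, adjusted p under 0.05), against 17.7% of the 11452 genes tested, and 3 were lower, against 17.6%. The median log2 fold change was 1.04 over the members and -0.02 over all genes. By group, higher genes were found among the proteases (7 of 10 higher, median 1.63) and the V-ATPase (9 of 12, median 1.13), as well as among 4 of 7 glycosidases, 4 of 5 other hydrolases and precursors, and 4 of 7 membrane proteins.

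Among the proteases, Ctsd, an aspartic protease, stood at 480.1 and 411.5 CPM in RT, at 5463 and 5384 CPM in COLD and at 4322 and 2173 CPM in CL. Both COLD and both CL libraries lay far above both RT libraries. The log2 fold change of Ctsd was 3.64 ± 0.32 (SE) in cold (adjusted p = 0.000113). Ctsk, which lies near Ctss on chromosome 3, stood at 21.9 and 0.76 CPM in RT, 139.0 and 211.0 CPM in COLD and 21.3 and 17.1 CPM in CL. COLD was above every other C57 library, whereas CL did not exceed RT 1. Its log2 fold change in cold was 4.06 ± 0.65, but the RT libraries held 49.0 and 2.0 UMIs, and the 49.0 UMIs all lay in the 34 MAC1-like cells of RT 1.

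The cysteine proteases Ctsb, Ctsl and Ctss also rose. Ctsb went from 2532 and 2768 CPM in RT to 9043 and 9071 CPM in COLD (log2 fold change 1.81 ± 0.24). Ctsl went from 267.0 and 196.1 CPM to 1119 and 1082 CPM (2.29 ± 0.39). Ctss, which trims the invariant chain during antigen presentation, went from 1482 and 2020 CPM to 6591 and 7325 CPM (2.03 ± 0.26). In each of these 3 genes the COLD pair lay above the RT pair without overlap. Ctsz, a carboxypeptidase (1.45 ± 0.22), and Lgmn, which cleaves after asparagine (1.02 ± 0.24), rose less. Ctsa (0.52 ± 0.18, adjusted p = 0.0509) and Ctsh (0.42 ± 0.24) did not pass the test.

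Ctsc, the dipeptidyl peptidase that activates granule serine proteases, was the protease that went the other way. It stood at 1152 and 1323 CPM in RT and at 801.3 and 709.6 CPM in COLD, a log2 fold change of -0.68 ± 0.21. This direction depended on how the macrophages were weighted: with MAC1-, MAC2- and MAC3-like cells given equal weight, the ratio of COLD to RT was 1.122 in place of 0.61.

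**Figure D3:**
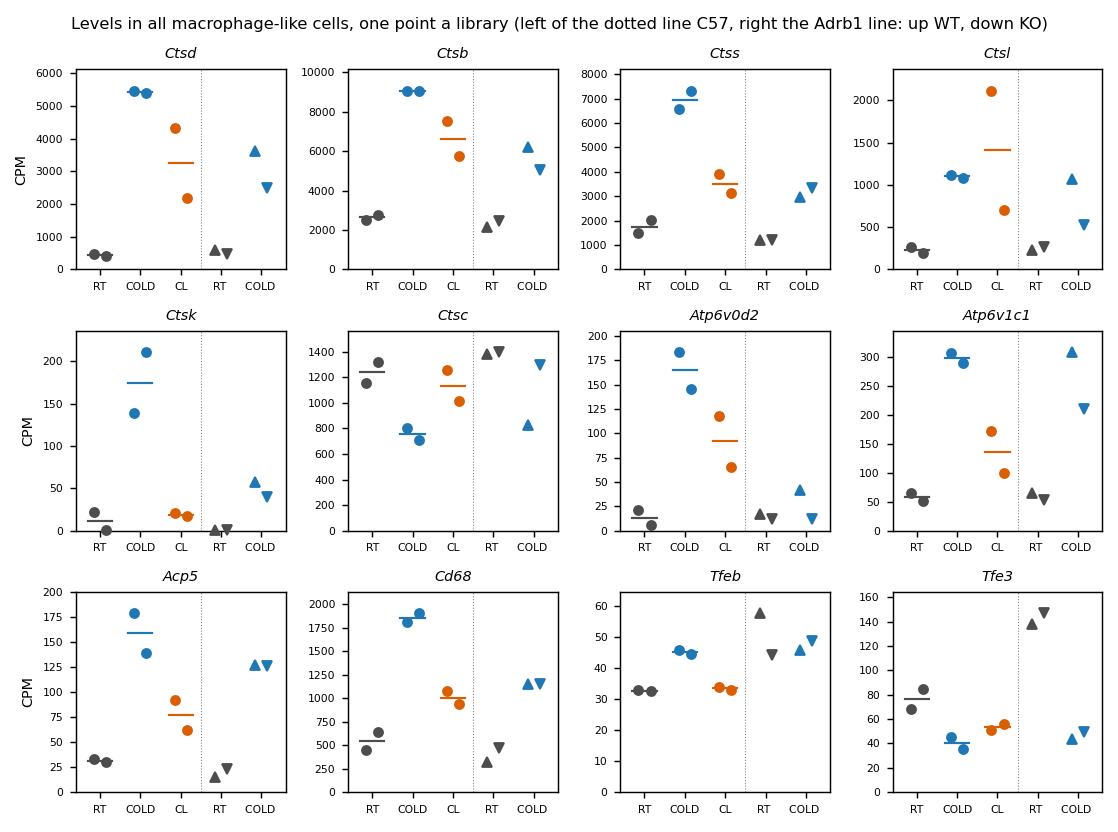
Levels (CPM, linear axes from 0) of 12 genes in all macrophage-like cells, with 1 point per library. Circles are C57 libraries with their mean as a line, upward triangles are WT and downward triangles KO libraries of the Adrb1 line. For Ctsd, Ctsb and Ctss both COLD libraries lie above both RT libraries, and Ctsc and Tfe3 run the other way (for Ctsc the direction turns with equal weight for the 3 macrophage classes).

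Of the V-ATPase subunits, Atp6v0d2, an isoform of the membrane sector known from osteoclasts and macrophages, stood at 21.0 and 6.08 CPM in RT, 183.5 and 145.7 CPM in COLD and 118.2 and 65.2 CPM in CL. Every treated C57 library was above both RT libraries. Its log2 fold change in cold was 3.68 ± 0.42, the largest of the subunits. Atp6v1c1 of the catalytic sector went from 65.7 and 52.0 CPM to 306.3 and 289.2 CPM (2.38 ± 0.23). The ubiquitous isoform Atp6v0d1 (1.17 ± 0.20), and Atp6v1d, Atp6v1g1, Atp6v1b2, Atp6v1e1, Atp6v1a and Atp6v0b (1.42 to 0.59) rose as well, of which Atp6v0b did not pass with the replicate number as a block (adjusted p = 0.0549, edgeR). Atp6v0a1 (0.26 ± 0.22) and Atp6v1h (0.36 ± 0.18) did not pass the test. Atp6v0c, the proteolipid of the proton ring, was lower (-1.75 ± 0.41), at 9.82 and 10.6 CPM in RT and 2.31 and 3.68 CPM in COLD. The annotation also lists pseudogene copies of Atp6v0c, so how its reads were assigned is uncertain.

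Among the glycosidases, 4 of 7 were higher, with a median log2 fold change of 0.91. Gla, which removes α-galactose from glycolipids, went from 48.0 and 29.4 CPM to 135.9 and 118.9 CPM (1.76 ± 0.26). Hexa, the α subunit of β-hexosaminidase, went from 461.1 and 574.8 CPM to 1055 and 1057 CPM (1.06 ± 0.21). Gusb, the β-glucuronidase (0.95 ± 0.19), and Naglu (0.91 ± 0.24) were higher too. Values for Glb1 (0.42 ± 0.19), Gaa (0.31 ± 0.21) and the sialidase Neu1 (-0.04 ± 0.16) did not pass the test.

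Among the other hydrolases, Acp5, the tartrate-resistant acid phosphatase, went from 33.1 and 29.6 CPM in RT to 178.6 and 139.0 CPM in COLD (2.38 ± 0.22). Lipa, which hydrolyses cholesteryl esters and triglycerides, went from 168.0 and 148.1 CPM to 417.4 and 371.9 CPM (1.35 ± 0.20). Psap, the precursor of the saposins, went from 2701 and 2704 CPM to 6645 and 6733 CPM (1.34 ± 0.23), and Grn rose by 1.07 ± 0.22. The acid phosphatase Acp2 (0.34 ± 0.18) did not pass the test. The COLD and RT pairs of Acp5, Lipa and Psap did not overlap. With the 3 macrophage classes weighted equally, however, the COLD to RT ratio of Psap was 1.00 in place of 2.48.

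Membrane proteins were split. Cd68 (macrosialin), a marker of macrophages, went from 452.8 and 645.2 CPM to 1816 and 1904 CPM (1.80 ± 0.24). Lamp1, a major glycoprotein of the lysosomal membrane, went from 677.7 and 807.8 CPM to 1657 and 1602 CPM (1.17 ± 0.22), and Cd63 (1.11 ± 0.21) and Scarb2 (0.60 ± 0.16) were higher. Lamp2 (0.17 ± 0.18), Laptm5 (0.37 ± 0.20) and Mcoln1 (-0.48 ± 0.31) did not pass the test. The 3 transcription factors did not move together. Tfeb (0.51 ± 0.17) and Mitf (0.73 ± 0.18) were higher, whereas Tfe3 was lower (-0.90 ± 0.21), at 68.3 and 84.9 CPM in RT and 44.9 and 35.3 CPM in COLD. The ratio for Tfeb was 0.95 when the 3 macrophage classes were weighted equally, in place of 1.38. All 3 lower calls in this comparison (Ctsc, Atp6v0c and Tfe3) were lost without RT 2, and 22 of the 33 calls held under each alternative tried. Those that did not hold were Lgmn, Ctsc, Naglu, Atp6v0b, Atp6v0c, Atp6v1a, Grn, Scarb2, Tfeb, Tfe3 and Mitf.

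The mix of macrophages differed between the groups. MAC2-like cells made up 92.5% and 92.7% of macrophage-like cells in RT 1 and RT 2 and 4.3% and 2.7% in COLD 1 and COLD 2. MAC1-like cells made up 4.6% and 3.3% in RT and 55.7% and 64.8% in COLD. The median of UMIs per macrophage-like cell was 2883 and 3430 in RT, 5063 and 5594 in COLD and 3395 and 5282 in CL. Markers of stromal and lymphoid cells summed to 73.8 and 86.8 CPM in RT, 44.2 CPM in both COLD libraries, and 80.8 and 116.6 CPM in CL. The part of these values in the fold changes was not tested. With equal weight for the 3 classes, the median over members of the COLD to RT ratio was 1.47, against 2.01 for all macrophage-like cells, and 12 members in place of 22 reached a ratio of 2. In RT this weighting gives MAC1-like (34 and 24) and MAC3-like cells (21 and 29) the same part as MAC2-like cells (678 and 669). The ratios therefore rest on few RT cells. Of the 33 called genes, 16 moved by over 1.5 times. The ratio was 3.76 in place of 12.2 for Ctsd, 2.10 in place of 15.5 for Ctsk, 2.51 in place of 12.2 for Atp6v0d2, 1.22 in place of 2.50 for Lipa and 1.18 in place of 2.10 for Cd63. It was 2.26 in place of 3.42 for Ctsb, 1.86 in place of 3.97 for Ctss, 1.32 in place of 2.67 for Ctsz, 1.59 in place of 3.29 for Gla and 2.78 in place of 5.07 for Acp5. Among further V-ATPase subunits it was 2.28 in place of 5.06 for Atp6v1c1, 1.36 in place of 2.51 for Atp6v1b2, 1.66 in place of 2.52 for Atp6v1g1 and 0.53 in place of 0.29 for Atp6v0c.

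CL316,243 was compared with the same RT libraries, so the values for cold and CL share their controls. In all macrophage-like cells, 18 of the 44 genes were higher in CL, against 3.81% of all genes, and none was lower, against 350 of the 11452 genes (30 members and 3012 of all genes had an unadjusted p under 0.05). DESeq2 called 29 higher, against 8.57% of all genes. The median log2 fold change over the members was 0.77, and 0.01 over all genes. Ctsd (2.82 ± 0.31), Atp6v0d2 (2.77 ± 0.42) and Ctsl (2.55 ± 0.40) led the list, followed by Ctsb (1.30 ± 0.24), Acp5 (1.27 ± 0.22), Lipa (1.18 ± 0.20), Atp6v1c1 (1.17 ± 0.23) and Grn (1.15 ± 0.22). Ctss (0.98 ± 0.25), Lamp1 (0.84 ± 0.22), Hexa (0.87 ± 0.21) and Atp6v0d1 (0.81 ± 0.19) passed as well. With the replicate number as a block, Ctss (adjusted p = 0.0517, edgeR), Lamp1 (0.0577) and Cd63 (0.0612) did not pass. Cd68 (0.85 ± 0.24, adjusted p = 0.0585), Lgmn (0.78 ± 0.24), Glb1 (0.64 ± 0.19), Ctsk (0.81 ± 0.69), Laptm5 (0.20 ± 0.20), Tfeb (0.02 ± 0.18), Tfe3 (-0.53 ± 0.21) and Mitf (0.58 ± 0.19) did not. The CL libraries were far apart for several members, with Ctsl at 2115 CPM in CL 1 and 709.1 CPM in CL 2. The count rested on single libraries: it was 0 without RT 1, 2 without RT 2, 4 without CL 1, 27 without CL 2, 10 without COLD 1 and 9 without COLD 2. The shares of all genes without each library are not given, so these counts show only how far the calls depend on single libraries. The mix of macrophages differed here too, since MAC1-like cells made up 37.3% and 26.9% in CL and MAC2-like cells 47.9% and 62.3%. With equal weight for the 3 classes, the median ratio of CL to RT was 1.29 in place of 1.72, and 4 members in place of 10 reached a ratio of 2. Of the 18 called genes, 7 moved by over 1.5 times. The ratio was then 1.01 in place of 1.78 for Cd63, 1.22 in place of 2.01 for Atp6v1b2, 1.26 in place of 2.31 for Lipa, 1.295 in place of 2.30 for Atp6v1c1, 1.303 in place of 2.01 for Ctss, 2.04 in place of 6.78 for Atp6v0d2 and 2.65 in place of 7.29 for Ctsd. It lay below 1 for Psap (0.92), Ctsz (0.98) and Ctsk (0.36), which had not passed the test. As in cold, these ratios rest on few MAC1- and MAC3-like cells in RT. None of the 18 calls held under each of the 13 alternatives tried.

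Cold and CL were then compared with each other. Here 6 of the 44 genes were higher in cold, against 3.41% of all genes, and none was lower, against 615 of the 11452 genes (16 members and 2944 of all genes had an unadjusted p under 0.05, and DESeq2 called 15, against 15.2% of all genes in either direction). They were Ctsk (3.24 ± 0.56), Atp6v1c1 (1.21 ± 0.22), Acp5 (1.11 ± 0.19), Ctss (1.05 ± 0.25), Gla (0.95 ± 0.24) and Cd68 (0.94 ± 0.24). Ctsd (0.82 ± 0.29) and Atp6v0d2 (0.91 ± 0.33), which led the changes in CL, did not pass this test. Nor did Ctsb (0.51 ± 0.23), Ctsl (-0.26 ± 0.37), Lipa (0.18 ± 0.20), Lgmn (0.24 ± 0.23) or Lamp1 (0.33 ± 0.22). The count was 1 without COLD 1, 2 without COLD 2, 4 without CL 2 and 10 without CL 1, and none of the 6 calls held under each of the 13 alternatives tried. With equal weight for the 3 macrophage classes, whose shares also differed between COLD and CL, the ratio of COLD to CL was 5.83 in place of 9.12 for Ctsk. It was 1.43 in place of 1.98 for Ctss, and from 1.503 to 1.76 for the other 4 genes, in place of 1.85 to 2.20.

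**Figure D4:**
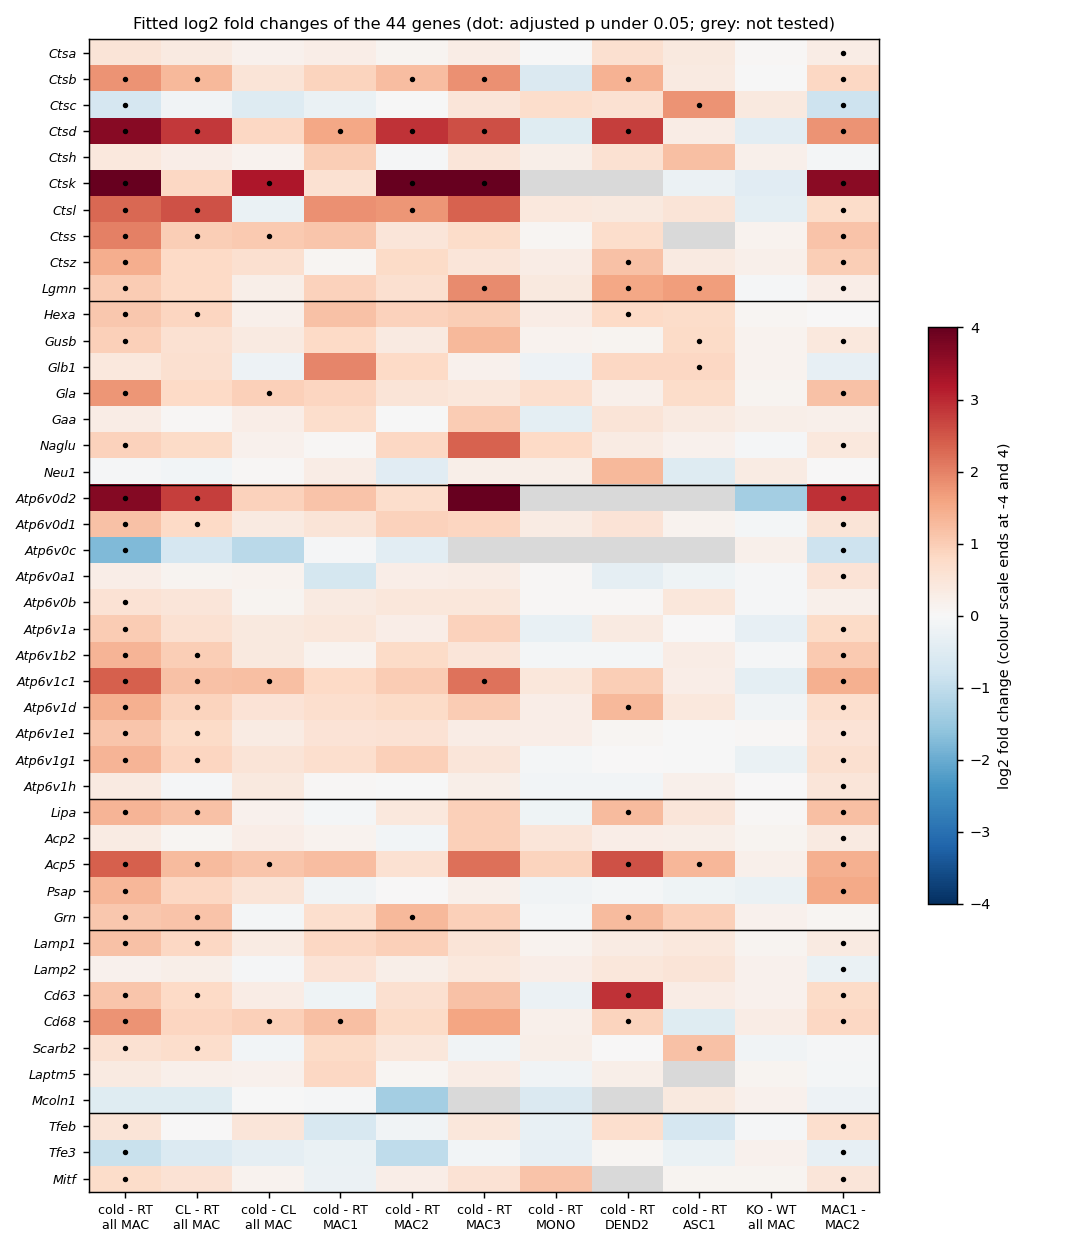
Fitted log2 fold changes of the 44 genes (rows, grouped by role) in 11 comparisons (columns), from edgeR. A dot marks an adjusted p under 0.05 and grey a gene not tested, and colours end at -4 and 4. Ctsd carries a dot in both treatments of all macrophage-like cells and in each macrophage class in cold. In MAC3-like cells the fitted values of Ctsk and Atp6v0d2 rest on RT libraries at 0.

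Within each macrophage class fewer genes passed, on fewer cells. In MAC1-like cells, of which RT held 34 and 24, Ctsd and Cd68 were higher in cold, 2 of 44 against 0.547% of all genes. Ctsd stood at 2780 and 2179 CPM in RT and 7253 and 6659 CPM in COLD (1.54 ± 0.28). Cd68 stood at 926.0 and 965.2 CPM in RT and 2053 and 2175 CPM in COLD (1.21 ± 0.25). Both genes were separated between the groups in this class too. In MAC2-like cells, of which COLD held 132 and 51, 5 of 44 were higher against 1.72% of all genes: Ctsd (2.88 ± 0.37), Ctsl (1.77 ± 0.40), Grn (1.28 ± 0.28), Ctsb (1.22 ± 0.30) and Ctsk. Ctsd in this class stood at 295.1 and 304.4 CPM in RT, 2535 and 2486 CPM in COLD and 3381 and 1300 CPM in CL. Ctsk stood at 0 and 0.85 CPM in RT and 11.3 and 10.7 CPM in COLD. This call rests on 0 and 2.0 UMIs in RT and 6.2 and 2.6 UMIs in COLD. Ctsk passed the filter on low counts only through treated libraries, so it does not bear on the count of 5. In T and natural killer cells Ctsk stood at 1.26 and 0.37 CPM in RT and 4.42 and 2.29 CPM in COLD. The part of background RNA in the call was not tested.

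In MAC3-like cells, 42 genes were tested and 5 were higher in cold, against 0.371% of all genes. Ctsd (2.59 ± 0.36), Atp6v1c1 (2.18 ± 0.40), Lgmn (1.88 ± 0.33) and Ctsb (1.83 ± 0.28) were among them. The fifth, Ctsk, had 0 UMIs in both RT libraries, which held 21 and 29 such cells, and 53.8 and 71.4 CPM in COLD. Ctsk therefore passed the filter on low counts only through other libraries and does not bear on the count. It was at least 5.25-fold higher in COLD, taking 3 UMIs over both RT libraries as the limit. Whether the change in cold differed between the 3 classes was not tested.

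CL against RT gave 7 higher genes in MAC2-like cells, against 2.04% of all genes. The 7 were Ctsk, Ctsd (2.83 ± 0.36), Ctsl (2.09 ± 0.40), Grn (1.29 ± 0.28), Ctsb (1.18 ± 0.30), Lipa (0.98 ± 0.22) and Atp6v1b2 (0.89 ± 0.22). For Ctsd, MAC2-like cells in CL lay above RT in both libraries. Ctsk had 35.8 and 9.9 UMIs in CL, against the 0 and 2.0 UMIs of RT. These were 8.89 and 3.97 CPM in CL, where T and natural killer cells stood at 5.39 and 1.93 CPM. The part of background RNA in this call was not tested. Here too Ctsk passed the filter on low counts only through treated libraries, so it does not bear on the count of 7. In MAC1- and MAC3-like cells no tested member passed in CL against RT by edgeR. Nor did any in monocyte-like or in DEND1- to DEND3-like cells. The shares of all genes there are not given, so this is not a result about the members. Cold against CL gave 3 higher genes in MAC3-like cells, against 0.577% of all genes: Ctsk (2.88 ± 0.35), Acp5 (1.35 ± 0.24) and Cd63 (1.29 ± 0.25).

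MAC1-like cells were compared with MAC2-like cells of the same library over all 10 Lin+ libraries. The 44 genes had been left out of the clustering, but the clusters rest on genes that may move with them, so the test gives the size of the difference against the spread between libraries. In MAC1-like cells 30 genes were higher, against 14.5% of 10235 genes, and 4 were lower, against 14.0%. Ctsk (3.62 ± 0.40), Atp6v0d2 (2.91 ± 0.30), Ctsd (1.79 ± 0.20), Psap (1.52 ± 0.12), Atp6v1c1 (1.44 ± 0.15), Acp5 (1.43 ± 0.21), Lipa (1.202 ± 0.11), Gla (1.18 ± 0.14) and Ctss (1.15 ± 0.13) led the list. In MAC2-like cells Ctsk held 0 UMIs in RT 1 and KO RT and at most 35.8 UMIs in any library, so the size of its difference is uncertain. The log2 ratio of Ctsd ran from 0.59 (KO RT) to 3.23 (RT 1), above 0 in all 10 libraries, as were those of 19 members in all, against 4.46% of the genes tested. Ctsc (-0.82 ± 0.11) and Lamp2 (-0.27 ± 0.09) were lower in all 10, against 7.03% of the genes tested. Tfe3 (-0.33 ± 0.11) and Atp6v0c (-0.82 ± 0.30) were also lower, and Tfeb (0.67 ± 0.14) and Mitf (0.48 ± 0.13) higher. Hexa (0.03 ± 0.09), Glb1 (-0.33 ± 0.16), Grn (0.08 ± 0.10) and Laptm5 (-0.09 ± 0.11) did not pass the test. Of the 34 calls, 26 held under each of the 16 alternatives tried, and those that did not were Ctsa, Lgmn, Naglu, Atp6v0c, Acp2, Lamp2, Tfe3 and Mitf.

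MAC3-like cells differed from MAC2-like cells in both directions. Against MAC2-like cells 11 genes were higher (22.0% of all genes) and 12 lower (21.8% of all genes), with a median log2 fold change of -0.15. These counts lie near the shares of all genes and are not a result about the members. Gla (0.98 ± 0.16), Atp6v1b2 (0.79 ± 0.17), Ctss (0.72 ± 0.13) and Psap (0.72 ± 0.14) were higher, and Cd63 (-1.61 ± 0.23), Glb1 (-1.47 ± 0.20), Hexa (-1.08 ± 0.13) and Naglu (-0.95 ± 0.20) lower.

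In monocyte-like cells, 5 genes were higher than in MAC2-like cells, against 30.2% of all genes, and 32 were lower, against 30.7%. The lower genes included Cd63 (-5.38 ± 0.18), Atp6v0d2 (-3.77 ± 0.36), Lgmn (-2.66 ± 0.11), Ctsd (-2.62 ± 0.35) and Ctsb (-2.08 ± 0.24). Atp6v0d2 held 0 UMIs in monocyte-like cells of RT 1 and RT 2 and at most 4.9 UMIs in any library, so the size of its difference is uncertain. Higher were Tfeb (0.85 ± 0.12), Atp6v1e1 (0.72 ± 0.09), Psap (0.54 ± 0.11), Atp6v1b2 (0.49 ± 0.13) and Ctss (0.36 ± 0.10). In cold against RT, no tested member passed in monocyte-like cells by edgeR (0 of 41, 0.052% of all genes in either direction, with 2 members and 912 of all genes at an unadjusted p under 0.05). Ctsd stood there at 123.6 and 153.2 CPM in RT and 133.0 and 79.9 CPM in COLD, with the COLD libraries on either side of RT 1. The 2 members with an unadjusted p under 0.05 were Ctsc, at 315.7 and 455.7 CPM in RT and 775.9 and 584.0 CPM in COLD (0.71 ± 0.26), and Acp5, at 18.8 and 24.99 CPM in RT and 38.6 and 49.6 CPM in COLD (0.88 ± 0.30). Their groups did not overlap, but neither passed after adjustment. The class joins clusters that differ in level. In 1 of them Ctsb stood at 637.0 and 789.2 CPM in RT, against 966.5 and 1005 CPM in the whole class. A change in their mix and a change of RNA per cell cannot be told apart here either.

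Dendritic cells present antigen, for which they cut proteins in lysosome-related compartments. In DEND2-like cells, with Cd209a and Clec10a among their leading genes, 39 of the genes were tested and 11 were higher in cold, against 3.15% of all genes. Ctsd stood at 50.7 and 46.9 CPM in RT and 464.1 and 327.6 CPM in COLD (2.77 ± 0.32). Acp5 stood at 21.0 and 19.0 CPM in RT and 148.7 and 136.6 CPM in COLD (2.54 ± 0.29). Lgmn stood at 137.5 and 123.8 CPM in RT and 475.4 and 451.5 CPM in COLD (1.56 ± 0.24). The COLD libraries were above both RT libraries for all 3 genes. Cd63 (2.90 ± 0.55), Ctsb (1.39 ± 0.29), Atp6v1d (1.29 ± 0.20), Grn (1.27 ± 0.25), Lipa (1.26 ± 0.21), Ctsz (1.18 ± 0.22), Cd68 (0.91 ± 0.23) and Hexa (0.81 ± 0.20) completed the list. Ctss (0.69 ± 0.23) did not pass the test. How many of the 11 calls hold under the alternatives is not given. In B cells Cd63 stood at 9.43 and 12.7 CPM in RT and 37.8 and 30.8 CPM in COLD. Ctsd stood there at 37.0 and 45.9 CPM in RT and 26.0 and 28.4 CPM in COLD. By group mean Ctsd and Ctsb were lower in B cells in COLD, and the other called genes of DEND2-like cells higher. The part of background RNA in these calls was not tested.

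In DEND1-like cells, with Xcr1 and Irf8 among their leading genes, 36 genes were tested and 2 were higher in cold, against 2.75% of all genes. These were Ctsa (1.13 ± 0.25), at 18.5 and 17.1 CPM in RT and 45.1 and 54.3 CPM in COLD, and Atp6v1d (0.76 ± 0.20). In DEND3-like cells, with Ccr7 and Fscn1 among their leading genes, 33 genes were tested and only Lgmn was higher (1.90 ± 0.37), against 1.02% of all genes. It stood at 117.3 and 129.9 CPM in RT and 528.8 and 540.7 CPM in COLD. Both COLD libraries were above both RT libraries for Lgmn and for Ctsa. Neither RT library of the Adrb1 line held 20 DEND1- or DEND3-like cells.

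In the stroma, ASC1-like cells were compared in the 6 C57 Lin- libraries. The share of UMIs on the 44 genes was 1.14% and 1.13% in RT, 1.34% and 1.44% in COLD and 1.33% and 1.28% in CL. Of the 44 genes, 40 passed the filter and 6 were higher in cold, against 6.22% of 12223 genes, with a median log2 fold change of 0.36 over the 40 members and 0.01 over all genes. None was lower (12 members and 3435 of all genes had an unadjusted p under 0.05). The 6 were 2 proteases, 2 glycosidases, Acp5 and Scarb2.

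Ctsc stood at 49.8 and 78.7 CPM in RT, 214.7 and 179.5 CPM in COLD, and 99.1 and 79.6 CPM in CL (cold against RT 1.81 ± 0.19, adjusted p = 0.00092). COLD lay above all other C57 libraries. In the same contrast of all macrophage-like cells Ctsc was lower, but not with the 3 macrophage classes weighted equally (ratio 1.122) and not past the threshold without RT 2. Lgmn stood at 78.3 and 128.9 CPM in RT, 272.9 and 303.9 CPM in COLD and 320.3 and 186.9 CPM in CL (1.68 ± 0.29 in cold). All treated libraries lay above both RT libraries. Acp5 stood at 18.03 and 52.7 CPM in RT and 66.9 and 72.3 CPM in COLD (1.32 ± 0.27). Scarb2 stood at 103.6 and 148.7 CPM in RT and 253.7 and 252.4 CPM in COLD (1.18 ± 0.23). The groups did not overlap for either gene. Glb1 (0.84 ± 0.19) and Gusb (0.77 ± 0.18) were the other genes that rose.

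Several genes that rose in macrophage-like cells did not pass the test in ASC1-like cells. Ctsd stood at 324.7 and 230.5 CPM in RT and 284.5 and 362.2 CPM in COLD (0.29 ± 0.42), with overlapping groups. Ctsb (0.37 ± 0.58), Ctsl (0.52 ± 0.67), Ctsk (-0.24 ± 0.36), Lipa (0.49 ± 0.15), Lamp1 (0.41 ± 0.49) and Hexa (0.73 ± 0.39) also missed the threshold. So did Tfeb (-0.66 ± 0.23), Tfe3 (-0.27 ± 0.20) and Mitf (0.12 ± 0.21). A list of immune marker genes summed to 7.39 and 7.30 CPM in the RT libraries of ASC1-like cells, 12.7 and 10.6 CPM in COLD and 9.43 and 9.79 CPM in CL, and its part in the result was not tested. Without COLD 2 the count of higher genes was 1, and without COLD 1 it was 3. Ctsc was called under each alternative tried.

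**Figure D5:**
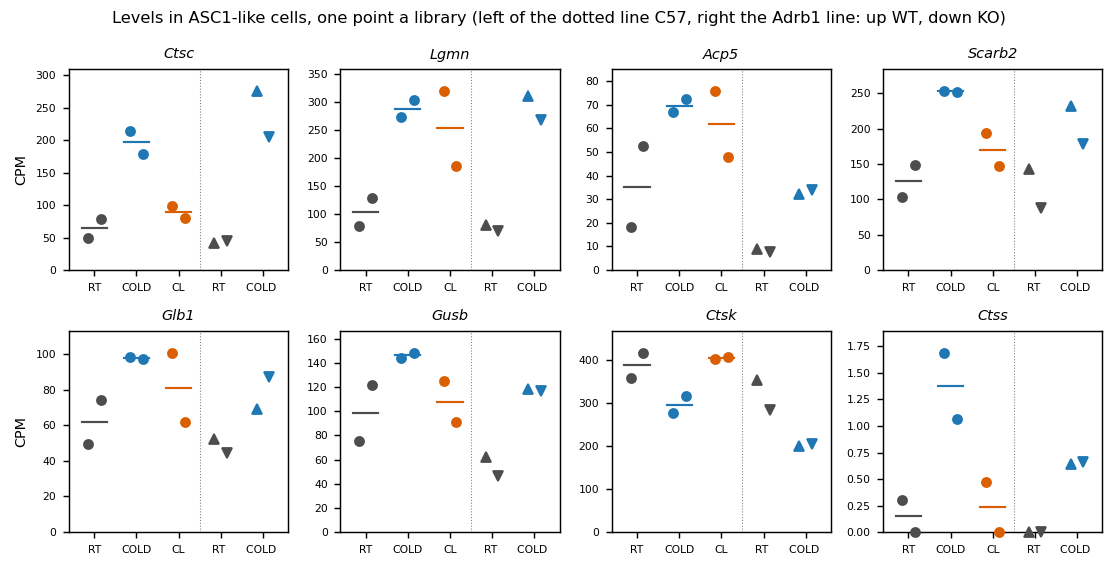
Levels (CPM, linear axes from 0) of 8 genes in ASC1-like cells, with 1 point per library. Circles are C57 libraries with their mean as a line, upward triangles are WT and downward triangles KO libraries of the Adrb1 line. Ctsc in COLD (214.7 and 179.5 CPM) lies above the RT and CL libraries, and Ctss stays at or below 1.69 CPM.

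With CL, Lgmn was the 1 member higher in ASC1-like cells (1.51 ± 0.29, adjusted p = 0.0469), against 0.679% of all genes, and 7 members and 1624 of all genes had an unadjusted p under 0.05. DESeq2 called 4 members higher, against 2.23% of all genes. The edgeR call was lost without the barcodes that the CL 2 libraries share, with the replicate number as a block, and when RT 2, CL 1, COLD 1 or COLD 2 was left out. Between cold and CL, Ctsc was the 1 member higher in cold (1.10 ± 0.18), against 0.352% of all genes. In ASC2-like cells no tested member passed in cold by edgeR (0 of 40, 0.751% of all genes in either direction, with 2 members and 1064 of all genes at an unadjusted p under 0.05). In ASC3-like cells the same held (0 of 40, 0.438% of all genes, with 4 members and 782 of all genes at an unadjusted p under 0.05). The 2 members in ASC2-like cells were Scarb2 (0.81 ± 0.19) and Grn (0.61 ± 0.26). The 4 in ASC3-like cells were Lgmn (0.99 ± 0.27), Scarb2 (0.83 ± 0.27), Ctsc (0.74 ± 0.33) and Lipa (0.64 ± 0.20). All were higher in cold, as Lgmn, Scarb2 and Ctsc were in ASC1-like cells, but none passed after adjustment. The RT libraries were far apart for some members. Cd63 stood there at 896.1 and 198.1 CPM in ASC2-like and 2029 and 1133 CPM in ASC3-like cells (SE 0.695 and 0.702 in cold). Whether the classes differed in their change was not tested.

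In the Adrb1 line the share of UMIs on the 44 genes in macrophage-like cells was 1.79% in WT RT, 1.83% in KO RT, 3.42% in WT COLD and 3.03% in KO COLD. Ctsd went from 610.0 CPM in WT RT to 3611 CPM in WT COLD, and from 468.9 CPM in KO RT to 2481 CPM in KO COLD. Of the 30 genes that rose with cold in C57 mice, 23 were higher in the COLD than in the RT library of both genotypes, where kit and temperature cannot be told apart. Of all 2026 genes that rose in C57 mice, 78.1% were, so the count is not a result about the members. The other 7 were Hexa, Gla, Naglu, Lipa, Scarb2, Tfeb and Mitf, for which at least 1 pair did not show the rise.

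KO was compared with WT over both temperatures, 2 libraries against 2. No member passed in macrophage-like cells by edgeR (0 of 44, 0.0% of 11196 genes, with 1 member and 463 of all genes at an unadjusted p under 0.05), nor by DESeq2. Without the filter on low counts, 1 member was called lower, against 0.149% of 18753 genes. The member with the smallest p was Atp6v0d2 (-1.37 ± 0.47, unadjusted p = 0.0131, adjusted p = 1), at 17.5 CPM in WT RT, 11.8 CPM in KO RT, 41.9 CPM in WT COLD and 12.3 CPM in KO COLD. In ASC1-like cells no member passed either (0 of 40, 0.0% of 12601 genes, with 1 member and 259 of all genes at an unadjusted p under 0.05). With 1 library per genotype and temperature, the precision is low, as the SE of Atp6v0d2 shows.

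Genes of the lysosome outside the 44 were counted in the same fits. Of 44 other lysosomal genes, 16 were higher in macrophage-like cells in cold and 8 were lower, against 17.7% and 17.6% of all genes, with a median log2 fold change of 0.33. Igf2r, the mannose 6-phosphate receptor that brings hydrolases to the lysosome (3.37 ± 0.40), the sulfatase Galns (2.54 ± 0.35) and Tcirg1, a further V-ATPase subunit (1.54 ± 0.18), were higher. Arsa, which desulfates sulfatide (-1.20 ± 0.21), and Ctns, the cystine exporter (-1.19 ± 0.21), were lower. Of 29 tested genes for lysosomal signalling and autophagy, 8 were higher and 1 lower, against the same shares, led by Fnip2 (1.53 ± 0.22) and the Ragulator subunits Lamtor5 (1.22 ± 0.21) and Lamtor3 (1.08 ± 0.17), with a median of 0.21. Among the cystatins, which inhibit cysteine cathepsins, Cstb (2.09 ± 0.24) and Cst7 (1.501 ± 0.48) were higher and the secreted Cst3 was lower (-1.59 ± 0.30). In CL, 4 of the other lysosomal genes (Igf2r, Galns, Tcirg1 and Atp6v0e) and 3 of the signalling genes (Fnip2, Lamtor5 and Lamtor3) were higher, against 3.81% of all genes. In ASC1-like cells in cold, 2 of the 44 other lysosomal genes were higher, Tcirg1 (0.77 ± 0.19) among them, against 6.22% of all genes. Tpcn1 (-1.71 ± 0.23), Gm2a (-1.14 ± 0.18) and Ids (-0.93 ± 0.17) were lower, 3 of 44 against 5.56%. Both counts lie near the shares of all genes.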

How the data were processed

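Single-cell RNA-seq was made from 20 libraries (10 experiments, Lin+ and Lin- each). The deposited values are expected counts: the authors aligned reads to mm10 with Cell Ranger 3.0.1 and subtracted ambient RNA with SoupX, so that 97.2% to 99.6% of entries per library were not whole. SoupX removes a background that can hold abundant transcripts, so low levels in a class are uncertain.

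Cells with over 10% mitochondrial UMIs, over 15000 UMIs, over 4000 genes (Lin+) or under 100 genes (Lin-) were removed. Doublets were not called. This left 59935 Lin+ and 66339 Lin- cells. Cells were clustered without the 44 genes and the naming markers (2000 variable genes, 30 principal components, alignment over 6 cohorts, 20 neighbours, leidenalg 0.10.2, resolution 1). The naming rule was set after the clusters were seen, so classes are rebuilt and may differ from those of the study. The members and gene lists were chosen with earlier results of these data known. The named genes are, in each comparison, up to 25 called members with the largest change, a fixed set of members given always, and called genes of further lists, of which some are not reported here.

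Sums per library and class (at least 20 cells) were rounded and tested with edgeR 4.0.16 (quasi-likelihood, TMM, filterByExpr) in R 4.3.3, with Benjamini-Hochberg adjustment across every gene in the fit and a threshold of 0.05. CPM used class totals without TMM factors. The SE is that of the log2 fold change. Replicates are pools of separate mice, and the replicate number marks the experiment in the study's methods, which pairs the C57 libraries. Deviations of libraries with the same number from their group means correlated at 0.18, 0.09 and 0.12 in macrophage-like cells and at 0.17, -0.03 and 0.29 in ASC1-like cells. The replicate number as a block was an alternative. DESeq2 1.42.0 and other settings were alternatives. The test was also run on simulated data, whose outcome is not given here and is not used as support. MAC1- and MAC2-like cells of a library were compared with the library as a block. Promoter windows came from RefSeq (GRCm38.p6).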

Additional observations from a re-analysis of the deposited data

Results flagged for a closer look

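In 2 of the 44 genes, 1 of the 10 libraries stood apart in the log2 ratio of MAC1-like to MAC2-like cells, by Dixon's test. Chance gives about 1 such gene in 20. For Glb1 the ratio in RT 1 was -2.53, where MAC1-like cells numbered 34, and the nearest library stood at -1.09. For Mcoln1 the ratio in COLD 1 was 1.59, and the nearest stood at -0.19.

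Gla and Mitf rose with cold in both C57 experiments and were slightly below RT in both pairs of the Adrb1 line. In macrophage-like cells Gla rose from 48.0 and 29.4 CPM in RT to 135.9 and 118.9 CPM in COLD of C57 mice, whereas its log2 change was -0.09 in the WT and -0.30 in the KO pair. For Mitf the log2 changes were 0.66 and 0.68 in the C57 experiments, against -0.08 and -0.27. In 5 further genes that did not pass the test in C57 mice, both C57 experiments were above 0 and both pairs of the Adrb1 line below. The log2 changes were 0.60 and 0.20 against -0.18 (WT) and -0.37 (KO) for Ctsh, 0.42 and 0.36 against -0.87 and -1.18 for Glb1, and 0.10 and 0.35 against -0.43 and -0.95 for Atp6v0a1. They were 0.16 and 0.10 against -0.92 and -0.53 for Lamp2, and 0.32 and 0.36 against -1.19 and -0.89 for Laptm5. The share of all genes with this pattern is not given, so the number is not a result about the members. Some of these falls were also seen outside macrophages. In monocyte-like cells Laptm5 stood at 1473 (WT) and 1393 CPM (KO) in RT, against 753.1 and 706.1 CPM in COLD. Gla, Atp6v0a1 and Lamp2 were likewise lower in COLD there in both pairs. Ctsh was higher in both, and Glb1 and Mitf went both ways. The difference between the lines was not tested, and kit, sex, tamoxifen and line cannot be told apart.

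The Lin+ library of CL 2 held 1044 cells of a stromal (ASC2-like) cluster, against at most 58 in any other Lin+ library. These cells were in no comparison.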

How the results depend on the processing

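No call changed its sign under the alternatives of the tests. Equal weight for the 3 macrophage classes has no test and rests on few MAC1- and MAC3-like cells in RT. With it, the ratio to RT crossed 1 for 3 called genes in cold, Ctsc (1.122), Psap (0.998) and Tfeb (0.95). In CL it crossed 1 only for genes not called, such as Ctsk (0.36). Each call was counted once under each alternative, and 1182 of these results kept the call and 194 lost it. Genes without a call were not counted, so calls gained under an alternative are not among them. Leaving out a C57 library gave 23 to 34 called members for cold against RT in macrophage-like cells (33 with all libraries), 0 to 27 for CL against RT (18), 1 to 10 for cold against CL (6), 1 to 6 for cold in ASC1-like cells (6) and 0 to 1 for CL in ASC1-like cells (1). Leaving out any Lin+ library gave 29 to 33 for MAC1-like against MAC2-like cells (34). For CL against RT in macrophage-like cells, DESeq2 gave 29, no filter on low counts 29, and clusters at resolution 0.5 gave 9. For cold against CL, DESeq2 gave 15 and no filter 10. For CL in ASC1-like cells, DESeq2 gave 4, no filter 2, resolution 0.5 gave 0, all 10 libraries in 1 fit gave 2, and leaving out the barcodes shared in CL 2, an alternative chosen after seeing the data, gave 0. For KO against WT in macrophage-like cells, no filter gave 1. The shares of all genes are not given beside each of these counts, so they show only how far the calls depend on the processing. The causes were not tested. No such counts are given for calls within single macrophage classes or in dendritic classes. The same holds for MAC3-like and monocyte-like against MAC2-like cells.

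With the replicate block, 32, 16 and 8 members were called for cold against RT, CL against RT and cold against CL in macrophage-like cells, 6 for cold in ASC1-like cells, and 0 for CL in ASC1-like cells. The shares of all genes called with the block are not given, so a change in these counts is not a result about the members. Of the calls made without the block, Atp6v0b in cold, Ctss, Cd63 and Lamp1 in CL and Lgmn in CL in ASC1-like cells were lost, and no other.

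RT held 34 and 24 MAC1-like and 21 and 29 MAC3-like cells. The part of these low numbers in the count of calls within classes was not tested. Intervals and limits from UMIs cover counting error only.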
